A study of Mus musculus with 4 samples.

Results

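Wide peaks of catalytically engaged TOP2B were examined in cultured cortical neurons of wild-type embryonic Swiss-Webster mice. They were selected on their measured width: an entry of the pooled peak list had to lie on an autosome and span 400 bp or more from start to end. The rule kept 1124 of the 35315 autosomal entries, or 3.18% (95% Wilson interval 3.00 to 3.37), and left 34191 entries for comparison. The 4 libraries are 2 from TOP2B immunoprecipitation of chromatin (ChIP) and 2 from input, and every culture, input included, received etoposide at 50 µM for 30 min. No untreated or TOP2B-deficient group was analysed here. The authors called peaks on pooled libraries, so a value belongs to a peak and carries no replicate error, and depth per library is unknown. Intervals below cover counting error only and treat peaks as independent, which neighbouring peaks are not.

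TOP2B is the type II topoisomerase of post-mitotic neurons. It passes one DNA duplex through a transient break in another, which removes supercoils and tangles that arise during transcription and loop formation, and each subunit stays covalently joined to a DNA end while the break is open. Etoposide blocks religation and so holds the enzyme in this state, called the cleavage complex. The width of a peak is the length over which the caller found more signal than in the control.

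The widest entry lay over the start of Fos, the immediate early gene that encodes a subunit of the AP-1 transcription factor and is induced by neuronal activity. It spanned 1664 bp, from 598 bp before to 1065 bp after the gene start, and its fold over control was 49.6. Only 6 promoter windows, each reaching from 250 bases before to 50 bases after a gene start in RefSeq (GRCm38.p6), were covered completely by a wide peak. The upstream 250 bases of the 4 under the widest peaks are shown because these stretches of promoter lie wholly inside a wide peak. They belong to Fos (chr12:85473640-85473889, plus strand), the long noncoding RNA gene Gm15510 (chr7:5057117-5057366, minus strand), the olfactory receptor gene Olfr1342 (chr4:118690451-118690700, minus strand) and the long noncoding RNA gene Gm51773 (chr10:75053018-75053267, minus strand). Each sequence reads 5′ to 3′ in the direction of its gene, and capitals mark the motif matches described next.
Fos: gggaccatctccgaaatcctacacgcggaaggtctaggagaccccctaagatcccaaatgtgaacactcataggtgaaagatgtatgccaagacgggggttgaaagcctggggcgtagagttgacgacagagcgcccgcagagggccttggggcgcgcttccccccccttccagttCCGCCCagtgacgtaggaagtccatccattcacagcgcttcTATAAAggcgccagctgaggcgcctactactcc
Gm15510: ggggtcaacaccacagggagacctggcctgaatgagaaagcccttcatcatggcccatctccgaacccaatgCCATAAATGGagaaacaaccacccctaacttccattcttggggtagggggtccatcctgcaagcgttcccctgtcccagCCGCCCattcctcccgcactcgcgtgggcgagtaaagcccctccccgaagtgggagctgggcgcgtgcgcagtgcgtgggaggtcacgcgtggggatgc
Olfr1342: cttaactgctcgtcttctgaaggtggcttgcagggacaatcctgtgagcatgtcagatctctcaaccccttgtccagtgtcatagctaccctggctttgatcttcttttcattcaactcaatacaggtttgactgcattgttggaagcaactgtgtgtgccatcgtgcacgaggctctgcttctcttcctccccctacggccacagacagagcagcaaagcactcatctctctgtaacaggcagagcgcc
Gm51773: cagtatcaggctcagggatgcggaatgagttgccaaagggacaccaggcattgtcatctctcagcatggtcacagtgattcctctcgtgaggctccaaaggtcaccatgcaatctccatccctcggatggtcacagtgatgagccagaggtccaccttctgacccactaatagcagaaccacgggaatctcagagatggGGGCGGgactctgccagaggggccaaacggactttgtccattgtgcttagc

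The Fos stretch held a TATA box (TATAAA) beginning 33 bases before the gene start and a GC box (GGGCGG, here as CCGCCC on the opposite strand) 74 bases before it. Gm15510 held a GC box 99 bases and a CArG box, the core of serum response elements, 178 bases before its start. Gm51773 held a GC box 51 bases before its start, and Olfr1342 held no match to any motif searched. The search covered both strands of 31396 windows of 300 bases on the autosomes. TATAAA was found in 13.6% of them, GGGCGG in 36.0%, the CArG box in 1.57%, the cyclic AMP response element TGACGTCA in 1.83%, the AP-1 motif TGANTCA in 7.85% and AGGNGGCAG, a part of the CTCF consensus, in 3.85%. These matches describe letters in the windows and are not binding sites. Near matches and the parts of a peak outside its window, also at Fos, were not searched. A motif without a match may thus still be present in the peak.

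The interval of 20 of 1124 wide peaks (1.78%) and of 339 of 34191 others (0.992%) overlapped a promoter window. A longer interval meets a window more easily, so these shares are a description and no comparison of position. The 20 peaks met 21 windows, since a single peak of 489 bp covered the facing starts of the keratin gene Krt7 and the noncoding gene Gm671. The median GC content of these 21 windows was 58.7% (quartiles 55.3 and 63.7), against 55.7% in the 379 windows met by other peaks and 53.0% in all windows. GGGCGG was present in 13 of the 21 (61.9%) and in 124 of the 379 (32.7%). TATAAA and the CArG box were each present in 1 of the 21, and the remaining motifs in none.

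**Figure D1:**
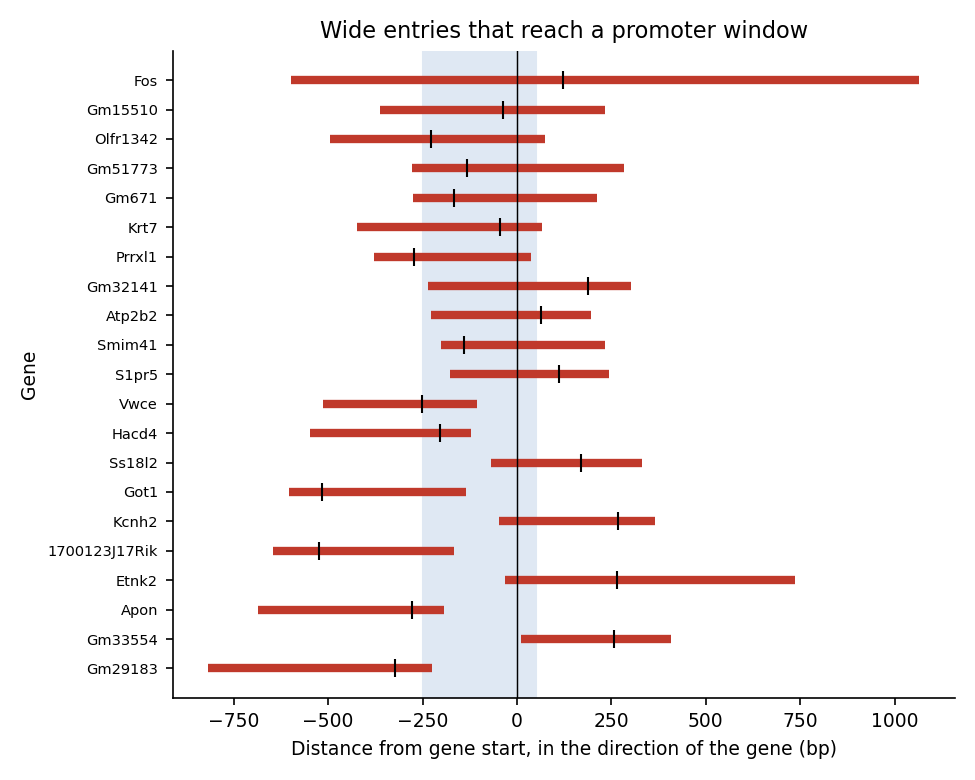
Wide peaks that overlap a promoter window, drawn as red bars against distance from the gene start of that window in bp, positive in the direction of the gene. The black tick is the summit and the shaded band the window. The Fos peak reaches from -598 to 1065 bp and is the longest bar.

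Promoter peaks at other genes covered less of the window, and 3 examples come from genes of signalling and transport. At Atp2b2, which encodes a plasma membrane calcium pump of neurons, a peak of 426 bp ran from 228 bp before to 197 bp after the start, with a fold of 3.29 and a deposited q of 0.0208. At S1pr5, a sphingosine-1-phosphate receptor gene, a peak of 422 bp had its summit 112 bp inside the gene, a fold of 2.94 and a q of 0.0675. At Kcnh2, which encodes an ERG-type potassium channel, a peak of 415 bp had its summit 268 bp after the start, a fold of 3.11 and a q of 0.039. Starts here are those of the promoter windows, which can differ from the ends of the listed gene. The summits at Atp2b2, Kcnh2 and Olfr1342 lay more than 1 kb from both ends of those genes. Apart from Fos and Etnk2, these promoter peaks had folds between 2.28 and 3.29.

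**Figure D2:**
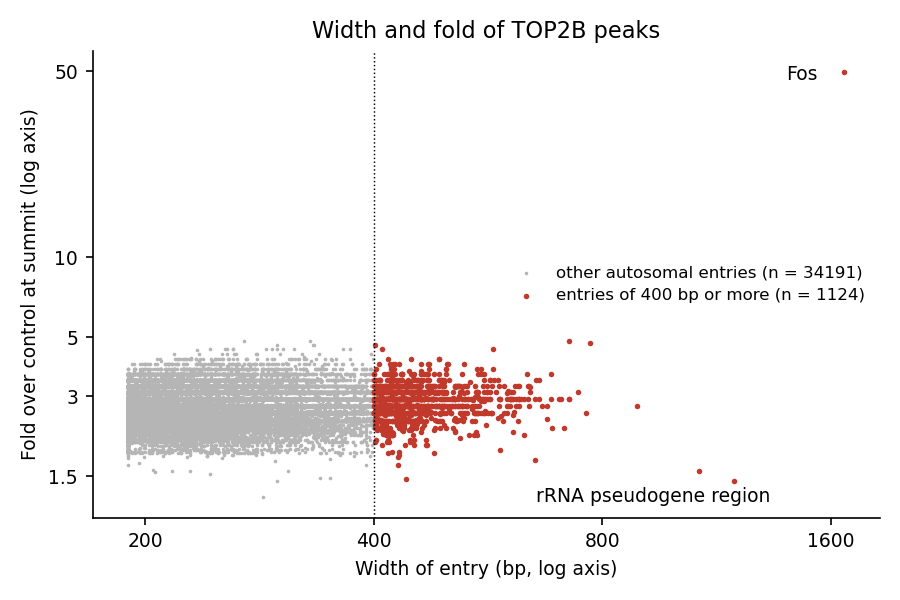
Width (bp) against fold over control at the summit, both on log axes, for every autosomal entry. Red points are the 1124 entries of 400 bp or more and grey points the 34191 others. Fos stands alone at 1664 bp and 49.6, and the entry of 1191 bp with a fold of 1.44 lies in the ribosomal RNA pseudogene region.

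Widths fell off steeply above the minimum. The median wide peak measured 441 bp (quartiles 418 and 484), 637 of the 1124 lay between 400 and 449 bp, and 58 reached 600 bp. Other entries had a median of 220 bp. The entries of highest fold just inside the limit, all at 400 bp, lay in Zfp804b (fold 3.63), 198 kb from Car8 (3.63) and on chromosome 2 from 178953050 to 178953449 (3.46). Just outside it, at 399 bp, the 3 of highest fold had 4.14 on chromosome 6, 3.63 beside the lipid transporter gene Abca7 and 3.46 in Plch2. The limit thus cuts a continuous range of widths, and no gap in the list separates wide peaks from the rest.

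Fold, pileup and q come from the same contrast as width, so their values describe the members and are no test. The median fold was 2.92 (quartiles 2.59 and 3.11) in wide peaks and 2.77 (2.49 and 2.94) in other entries. The summit pileup, recovered from fold and p, had a median of 16 fragments against 15. A q of 0.05 or less was reached by 389 of 1124 wide peaks (34.6%), while 23.5% of all autosomal entries reached it. The most common control level, 4.78 fragments, was also the lowest, and 71.1% of autosomal entries had it. At that level the share of wide entries was 1.22% at pileups of 13 or fewer and 3.18% at a pileup of 15. It was 6.20% at 20 or more. The share of wide entries thus rose with height overall but stayed small at every height. The summit stood at 0.496 of the interval from its start in the median wide peak (quartiles 0.286 and 0.714) and at 0.488 in other entries (0.353 and 0.624).

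Among the 10 widest peaks, the fold ranged from the highest of the autosomal list, at Fos, to values below the median. Slc16a7, a monocarboxylate transporter gene, held a peak of 888 bp with a fold of 2.77, 81174 bp from the nearest gene end. Etnk2, an ethanolamine kinase gene, had 770 bp at its start with a fold of 4.76. Zbtb7c, a zinc finger gene, held 742 bp with a fold of 3.11. Shank3, which encodes a scaffold of excitatory synapses, held 723 bp with a fold of 4.84, 10973 bp from the nearer gene end. Peaks outside genes measured 762 bp on chromosome 2, 23678 bp from Gm14461, 723 bp located 85528 bp from Tbr1, a transcription factor gene of deep-layer cortical neurons, and 722 bp located 142973 bp from the adhesion gene Alcam. The last 3 had folds of 2.59, 2.94 and 2.94, with q from 0.0675 to 0.177. Extent and fold were thus both high at Fos, Etnk2 and Shank3, while the fold was close to the median of wide peaks at Slc16a7 and near Tbr1 and Alcam.

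Folds above 4 were found in 10 wide peaks and 87 other entries. After Fos, Shank3 and Etnk2 came Camkmt, which encodes a calmodulin lysine methyltransferase (fold 4.67, 401 bp), Kdm4b, a histone demethylase gene (4.50, 410 bp), and a peak of 574 bp outside genes, 258686 bp from the receptor phosphatase gene Ptpru (4.50). Spsb4, Chtf18, a clamp loader gene of sister chromatid cohesion, Plekha7, an adherens junction gene, and a peak 5397 bp from Basp1, an axonal membrane protein gene, each had 4.15. Of these 10, only Fos and Etnk2 had the summit within 1 kb of a gene end.

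A small group of wide peaks had a high control level. It exceeded 2 times the most common level in 11 wide peaks (0.979%) and in 90 others (0.263%). The first 4 by control level lay together on chromosome 17 between 39843108 and 39848722, at and beside the ribosomal RNA pseudogene Rn18s-rs5, with control levels from 443.3 to 526.7 and folds from 1.44 to 2.08. Their widths were 441, 519, 1073 and 1191 bp. Next, a peak of 430 bp lay in Sfi1, a centrosome gene on chromosome 11, with a control level of 159.6 and a fold of 1.65. Thus 2 of the 3 entries of 1000 bp or more were in this region of high control level, and the remaining one was Fos, at the common control level of 4.78.

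**Figure D3:**
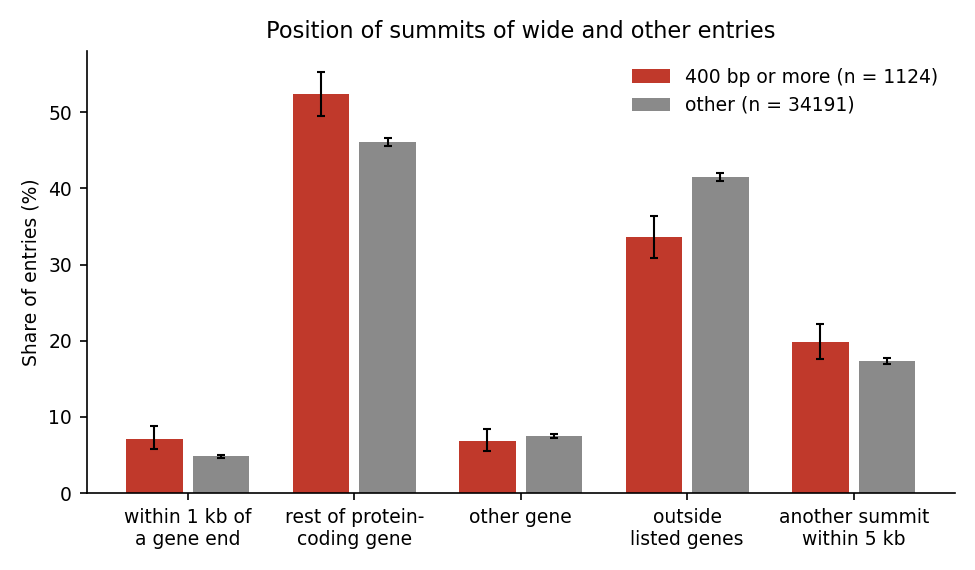
Share of entries (%) whose summit fell in each position class, and share with another summit within 5 kb, for 1124 wide (red) and 34191 other (grey) autosomal entries. Error bars are 95% Wilson intervals. Wide entries are higher at gene ends, in gene bodies and in having a neighbour, and lower outside listed genes.

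Wide peaks lay in and at protein-coding genes more often than other peaks. Position was taken from the single base of the summit, so that the length of the interval did not enter. Gene ends, taken as 1 kb to either side of where a protein-coding gene begins or stops, held 80 wide summits (7.12%, Wilson interval 5.76 to 8.77), against 4.83% of other summits, a difference of 2.28 percentage points (Newcombe 95% interval 0.902 to 3.95). The remaining length of such genes held 589 (52.4%) against 46.1%, a difference of 6.30 points (3.33 to 9.26). Outside all listed genes lay 378 (33.6%) against 41.5%, a difference of -7.89 points (-10.6 to -5.03). Other listed genes, mostly noncoding, held 77 (6.85%) against 7.55%, and the interval of that difference (-2.06 to 0.956) included 0. The comparison was repeated among entries with a q of 0.05 or less, a limit that does not match wide and other entries for height. The differences were then 2.88 points at gene ends (0.522 to 6.03), 9.75 in the rest of genes (4.66 to 14.7) and -11.4 outside genes (-15.9 to -6.57). Whether the differences in position go with height was not tested. The choice of window mattered: with 500 bp the gene-end difference was 0.553 points (-0.345 to 1.76). With 5 kb it was 7.71 points (5.22 to 10.4), and the difference in the rest of genes was 0.639 (-2.21 to 3.56). An excess inside genes more than 5 kb from an end was thus not resolved.

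Gene starts and far ends could be told apart for the 16456 of 20661 autosomal protein-coding genes (79.6%) with strand in the promoter table. A start here is an end of the listed gene, which can differ from the start used for a promoter window. Each summit was counted once: as a start if any end within 1 kb was a start, otherwise as unknown if any was of unknown direction. The rest, at far ends only, were counted as far ends. Of the 80 gene-end summits, 31 were counted at a start, 35 at far ends only and 14 as unknown. Starts took 2.76% of wide and 2.00% of other summits, a difference of 0.758 points whose interval (-0.0653 to 1.90) included 0. Summits at far ends only were 3.11% and 1.87%, a difference of 1.24 points (0.360 to 2.43). Summits at a far end that were also near a start or an end of unknown direction are not in these shares. Whether the excess at starts and at far ends differed from each other was not tested. Within 1 kb of the ends of 2 or more genes lay 13 of the 80 (16.2%), against 140 of 1653 gene-end summits of other entries (8.47%), a difference of 7.78 points (1.12 to 17.4). This comparison was not planned and was not repeated with other windows or width limits.

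**Figure D4:**
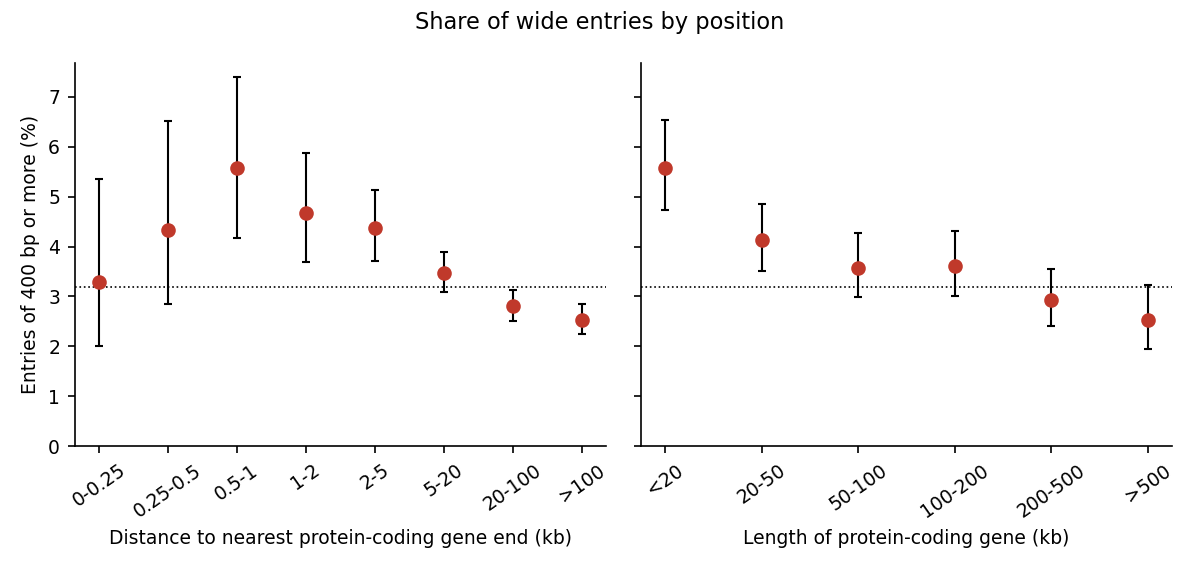
Share of autosomal entries that are 400 bp or wider (%), by distance of the summit from the nearest protein-coding gene end (left, kb) and by length of its protein-coding gene (right, kb). That gene holds the summit or lies within 1 kb of it, and is the longest where there are several. Error bars are 95% Wilson intervals and the dotted line is the share over all autosomal entries, 3.18%. The share is highest 0.5 to 1 kb from an end and in genes of 20 kb or less.

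Distance was measured from the summit to the nearest end of a protein-coding gene, so a summit deep inside a long gene counts as far. From 500 bp outward, the share of wide entries fell with this distance. It was 5.58% (44 of 789) at 500 to 1000 bp from an end, 4.37% at 2000 to 5000 bp, 3.47% at 5000 to 20000 bp and 2.53% (253 of 10011) beyond 100 kb. Under 250 bp from an end it was 3.29% (15 of 456, Wilson interval 2.00 to 5.36), a count too small to place that bin above or below its neighbours. Over all distances under 5 kb, 286 of 6349 entries were wide, a share 1.98 points above that beyond 100 kb (Newcombe interval 1.39 to 2.59). The median distance to an end was 19864 bp for wide and 32593 bp for other summits.

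Short genes held relatively more wide peaks and long genes fewer. A summit was assigned to the gene that held it or lay within 1 kb of it, and to the longest where there were several. In genes of 20 kb or less 141 of 2534 summits belonged to wide peaks (5.56%, Wilson interval 4.74 to 6.53), and in genes over 500 kb 59 of 2343 did (2.52%, 1.96 to 3.23). The difference was 3.05 points (Newcombe interval 1.95 to 4.16), with 4.13%, 3.57%, 3.60% and 2.93% in the length groups between. In a gene of 20 kb or less every base is within 10 kb of an end, so gene length and distance from an end are not separate measures here.

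Among the 15 widest gene-end peaks, some lay by the ends of neighbouring genes. At Plin4, a lipid droplet gene, a peak of 685 bp with a fold of 3.63 spanned its far end and lay within 1 kb of the far end of Hdgfl2. A peak of 640 bp with a fold of 2.77 had its summit 501 bp inside the far end of the zinc finger gene Zfp335 and within 1 kb of the far end of Pcif1, which encodes an RNA cap methyltransferase. Peaks inside or just past far ends were also found at Erfl (637 bp, fold 3.63), Zfp677 (621 bp, 2.94), Alg8, a glucosyltransferase gene of protein glycosylation (620 bp, 2.94), Plekhm2, a lysosome transport gene (588 bp, 2.54), and the single-exon transcription factor gene Foxl2 (529 bp, 2.77). Starts were represented, after Fos and Etnk2, by Fam189b (566 bp, 2.59), Lurap1 (542 bp, 2.77), Olfr1221 (531 bp, 2.59) and Cspg4, which encodes the NG2 proteoglycan of oligodendrocyte precursors (520 bp, 3.11). Gdap1l1 had 685 bp and a fold of 2.94 at an end of unknown direction, and Gm21761 549 bp and a fold of 2.97 at its far end over a raised control level of 7.75. The median fold of all 80 gene-end members was 2.94 (quartiles 2.75 and 3.28). A q of 0.05 or less was reached by 31 of the 80 and by 402 of the 1653 other gene-end entries. It was reached by 34.6% of all wide peaks and by 23.5% of all autosomal entries.

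In all, 650 of 20661 autosomal protein-coding genes (3.15%) held a wide summit in the gene or within 1 kb of it. Of these, 612 held 1, 35 held 2 and 3 held 3. The genes with 3 were Megf6, with 8 summits of any width in 105 kb, Mcf2l, a guanine nucleotide exchange factor gene, with 10 in 146.7 kb, and Arhgap15, a Rac GTPase-activating gene, with 14 in 647.2 kb. Genes with 2, in order of their widest peak, began with Plin4, with 3 summits in 9.36 kb, Pitpnm2, a phosphatidylinositol transfer gene (613 bp), Cacnb2, which encodes an auxiliary subunit of voltage-gated calcium channels (610 bp), Plekhm2, Dnah1, an axonemal dynein gene (573 bp), Anks1 (566 bp) and Capn15 (561 bp). In Capn15 both of its summits were wide. In 187 genes no narrower summit accompanied the wide ones.

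Gene lists of neuronal and other functions were read against that 3.15%, and since long genes are hit more easily, also by how many of their summits were wide. List members are named for the width of their peak, and most wide peaks had a q above 0.05. Immediate early genes had 1 of 22 members with a wide peak, Fos, at 1 of 8 summits (12.5%, Wilson interval 2.24 to 47.1). Late activity-regulated genes had none of 17, which held 10 summits. Long neuronal adhesion and signalling genes had 9 of 28, but these were 9 of 524 summits, or 1.72% (Wilson interval 0.906 to 3.23), an interval that holds the 3.18% of all autosomal entries and the 2.52% of genes over 500 kb. Its widest were in Ctnnd2, a delta-catenin gene (510 bp, fold 2.94), Pcdh15, a protocadherin gene (472 bp, 3.11), and Lsamp, a gene of the IgLON adhesion family (468 bp, 2.59). The genes of this list are long (median 1198 kb).

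Ion channel genes had a wide peak in 5 of 22 members, at 5 of 99 summits (5.05%, Wilson interval 2.18 to 11.3). The widest were in Cacna1h, a T-type calcium channel gene (677 bp, fold 2.77), Kcna2, a voltage-gated potassium channel gene whose single summit was wide (665 bp, 2.77), and the sodium channel gene Scn8a (465 bp, 3.08). Glutamate and GABA receptor genes had 3 of 29, at 3 of 115 summits (2.61%, 0.891 to 7.39). Among them were the metabotropic glutamate receptor gene Grm2 (491 bp, 3.11) and the kainate receptor gene Grik3 (476 bp, 2.93). Postsynaptic scaffold and kinase genes had 5 of 23, at 5 of 122 summits (4.10%), led by Shank3, Dlgap1 (523 bp, 2.59) and Magi2 (462 bp, 3.40), which is also a member of the long-gene list. Projection neuron transcription factor genes had 4 of 20, at 5 of 59 summits (8.47%, 3.67 to 18.4). Cux2, a homeobox gene of upper cortical layers, held 2 of the 5, the wider of 549 bp with a fold of 3.11, Foxp1 one of 474 bp and Sox5 one of 445 bp.

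Lists for other roles and cell types held few summits. Genes of topoisomerases, cohesin and break repair had a wide peak in 1 of 21, at 1 of 29 summits (3.45%, Wilson interval 0.611 to 17.2). The gene was Wapl, the cohesin release factor gene, with 423 bp, a fold of 1.85 and a q of 0.405. Top2b, the gene of the precipitated enzyme, held 3 summits and Top2a 2, none of them wide. Oligodendrocyte lineage genes had 2 of 14, Cspg4 and Mag, a myelin adhesion gene (411 bp, 2.59), at 2 of 12 summits (16.7%, Wilson interval 4.697 to 44.8). Liver and muscle genes had 2 of 20, the troponin gene Tnnt3 (445 bp, 2.25) and the myoglobin gene Mb (409 bp, 3.03), at 2 of 9 summits (22.2%, 6.32 to 54.7). These were the highest shares of summits among the 12 lists and rest on 2 peaks each. Astrocyte and progenitor genes had none of 19 and housekeeping genes none of 18, with 12 and 5 summits.

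Small RNA genes were rarely met. The intervals of 2 wide peaks (0.178%) overlapped miRNA hairpins, Mir377 in one and Mir338 with Mir3065 in the other, and 15 of 34191 other entries (0.0439%) overlapped a miRNA gene. These shares rest on few peaks and on whole intervals, so the width that selected the members enters them. These genes were named after their values were seen. The Mir377 peak, of 461 bp on chromosome 12 from 109740118 to 109740578, had a fold of 3.73 and a q of 0.00144. It lay in the miRNA cluster of the imprinted Dlk1-Dio3 domain and covered both mature arms, printed here from RefSeq with the seed, bases 2 to 8, in capitals.
mmu-miR-377-5p: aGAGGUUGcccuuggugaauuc
mmu-miR-377-3p: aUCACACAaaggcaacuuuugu

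Neighbouring peaks were somewhat more frequent around wide peaks. Another summit of any width lay within 5 kb of 223 wide summits (19.8%, Wilson interval 17.6 to 22.3) and of 17.3% of others, a difference of 2.54 points (0.280 to 5.01). Within 20 kb the shares were 56.0% and 49.6%, a difference of 6.34 points (3.37 to 9.27). With the control level held at its most common value the 5 kb difference was 2.08 points with an interval (-0.525 to 4.98) that included 0. Within 1 kb the shares were 2.40% and 3.11%, where a wide interval leaves less room for a separate neighbour, since no entries overlapped and the smallest gap was 75 bp. The nearest neighbour was itself wide for 47 of 1124 wide peaks (4.18%) and for 3.11% of others, a difference of 1.07 points (0.0326 to 2.42), in which wide peaks that are each other's nearest count for both. With high control levels left out it was 0.871 points (-0.142 to 2.20), an interval that included 0.

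Most wide peaks stood far from each other, with a median of 505298 bp to the nearest wide one, and 16 had another within 5 kb. Of the 5 closest pairs, 3 were in the ribosomal region of chromosome 17, at 469, 900 and 2434 bp between summits. The others were at Gm21761 on chromosome 13, 793 bp apart with control levels of 8.40 and 7.75, and in Rgl3, a Ral guanine nucleotide exchange factor gene, on chromosome 9, 1607 bp apart with folds of 2.75 and 3.29 and control levels of 5.17 and 4.78.

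**Figure D5:**
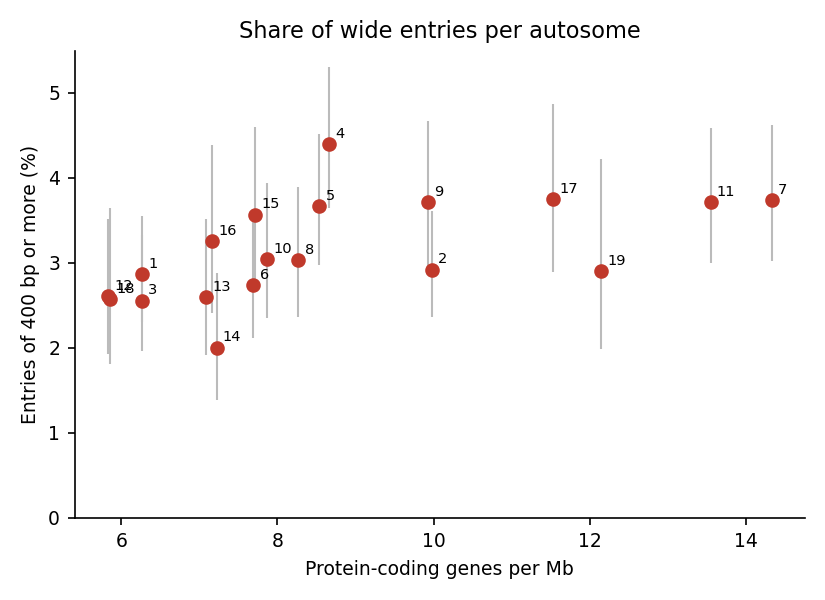
Share of entries of 400 bp or more (%) on each of the 19 autosomes against protein-coding genes per Mb, with 95% Wilson intervals and chromosome numbers beside the points. Chromosome 4 has the highest share, 4.39%, and chromosome 14 the lowest, 2.00%.

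The share of wide entries varied between autosomes. Chromosome 4 had 104 of 2367 (4.39%, Wilson interval 3.64 to 5.30) and chromosome 14 had 28 of 1399 (2.00%, 1.39 to 2.88). These intervals did not overlap, but they belong to the highest and lowest of 19 shares, picked after ranking, and are no test. The other 17 lay between 2.55% and 3.75%. Across the 19 autosomes the share was higher where protein-coding genes were denser (Pearson r 0.555, Spearman coefficient 0.728), given as a description because all points come from the same pooled libraries and base composition was not analysed. Gene-rich chromosomes 7, 11 and 17 had 3.73%, 3.71% and 3.75%, while chromosome 19, also gene-rich, had 2.90%. Gene-poor chromosomes 12 and 18 had 2.61% and 2.57%. Chromosome 4 exceeded all of these at a middling 8.66 genes per Mb.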

How the data were processed

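TOP2B cleavage complexes were profiled in 2 ChIP and 2 input libraries. The submitters' processing notes name FastQC, Trimmomatic, BWA, SAMtools and MACS2 with builds mm10 and GRCm38.p6. For versions, caller settings and the libraries pooled, the sources used here give nothing. The deposited list has no header, and columns were read by narrowPeak order. The authors' deposited fold is a linear ratio of ChIP over control at the summit, and −log10 p and −log10 q are deposited values of each peak. The display score is a deposited number and was not used. Interval and summit positions became 1-based.

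Python 3.11.15 with numpy 2.4.6, pandas 2.3.3, scipy 1.17.1 and matplotlib 3.10.9 was used. Whole-number pileup and control level were solved from fold and p within 0.002 of −log10 p. Summits were classed against 47038 autosomal genes of RefSeq GRCm38.p6 in the order gene end (1 kb), rest of protein-coding gene, other gene, outside. Exons, repeats and base composition of peaks were not analysed here. Shares have Wilson and differences Newcombe 95% intervals, without p-values. Coverage of the Newcombe interval was checked on simulated independent draws, which lack the dependence between neighbouring peaks. Other width limits, windows, q limits and control levels were tried.

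The members and gene lists were chosen with earlier results of these data known. Named were the 10 widest peaks, the 10 of highest fold, the 5 of highest control level, the 15 widest at gene ends, up to 10 genes with most wide summits, up to 3 genes per list, the 5 closest pairs, the 3 entries on each side of the limit, and Fos, Top2b and Top2a. Promoter peaks and chromosomes other than the extremes were named after their values were seen. An item that this rule gives is not reported here.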

Additional observations from a re-analysis of the deposited data

Results flagged for a closer look

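Unplaced scaffolds and patches, which no comparison used, included 9 of 400 bp or more among 34 (26.5%, 95% Wilson interval 14.6 to 43.1), a signal in data outside the main measurement. On scaffold JH584304.1 there were 8, with widths from 438 to 904 bp and folds from 1.30 to 2.07. The remaining one, on KQ030494.1, measured 459 bp with a fold of 5.997.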

How the results depend on the processing

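The 8 differences in share were recomputed under 55 other settings. Of these, 49 kept their direction and did not change in whether their interval included 0. With a window of 500 bp the gene-end difference was 0.553 points (-0.345 to 1.76), and with a window of 5 kb the difference in the rest of genes was 0.639 points (-2.21 to 3.56). With the control level held at its most common value, a setting chosen after seeing the data, the difference in neighbours within 5 kb was 2.08 points. The difference in a wide nearest neighbour was 0.871 points with high control levels left out and 0.507 at the most common value. In other genes the difference turned to 0.0919 points with a limit of 350 bp. The interval of each includes 0, and the cause was not tested. The gene-end difference with a window of 5 kb was larger, at 7.71 points (5.22 to 10.4). Limits of 350 and 500 bp gave 2497 and 222 wide peaks and 1303 and 151 genes, by construction, and with 350 bp the share of q 0.05 or less was 28.9%. The comparisons by gene length, distance from an end and width of the nearest neighbour were added after seeing the data. That of ends of 2 or more genes was also not planned, and it was not recomputed. Merging, counted among the 49, changed nothing because no entries touch. No paired analysis was possible because the list is pooled over libraries. Unknown depth leaves no error for any single peak.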

Other observations

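Chromosome X, outside the autosomal rule, held 3 entries of 400 bp or more among 190 (1.58%, 95% Wilson interval 0.538 to 4.54), of 741, 420 and 404 bp, with folds of 2.77, 2.35 and 2.00.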
